A study of Mus musculus with 33 samples.

Results

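Complete loss of n-Tr20 was set beside its partial loss in mouse forebrain RNA, using 16 of the 33 libraries of the series. They fell into 4 groups of 4 libraries, all from mice aged 8 weeks and all labelled as sequencing batch 1. C57BL/6NJ (B6N) mice that lack n-Tr20 (genotype n-Tr20 -/-, here B6N knockout) were set against B6N mice with wild-type n-Tr20, which gave the complete loss effect. C57BL/6J (B6J) mice, which the labels give as hypomorphic for n-Tr20, were set against B6J mice carrying the transgene Tg(n-Tr20), built with the B6N form of the gene, which gave the hypomorph effect. The question asked was which genes differ between these effects, that is, (B6N knockout minus B6N) minus (B6J minus B6J transgenic), all as log2 fold changes. The libraries of transgenic mouse 4 sequenced again in batch 2, of B6J knockout mice and of hippocampus were not used here. The effects share no library, but one was measured in B6N and the other in B6J mice, so strain and the amount of n-Tr20 cannot be told apart in their difference. The B6J transgenic mice still carry their own B6J copy of n-Tr20, and the sources used here give no sex, no number of transgene lines and no transgene expression.

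A transfer RNA carries an amino acid to the ribosome and reads its codon in the messenger. n-Tr20 is an arginine tRNA, made mainly in neurons, that reads the AGA codon. When charged tRNA runs short or ribosomes stall, kinases can phosphorylate the initiation factor eIF2. This integrated stress response slows most translation while favouring that of ATF4, a transcription factor that turns on genes for amino acid uptake, amino acid synthesis and tRNA charging. These libraries measure longer RNA, and the level of the tRNA was not analysed here, so the genotype labels had no direct check.

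Each library held 14.7 to 24.2 M estimated counts (M, 1000000), and 25151 genes had enough counts to test. Levels are given as counts per 1000000 (CPM), and a gene is said to have risen, fallen or been called at an adjusted p under 0.05 in the quasi-likelihood F test of edgeR, adjusted by Benjamini-Hochberg over all 25151 genes. Libraries within a group all differed by more than counting error (lowest chi-square over degrees of freedom 2.77 in 24 pairs), and each was taken as a separate mouse. Groups also split on an axis of a multidimensional scaling, a map of expression differences, with 11.9% of the variance. B6N libraries 3 and 4 stood at 0.605 and 0.567, against -0.375 and -0.485 in the rest of B6N. B6N knockout 1 stood at 0.76 (others -0.257 to -0.05) and B6J 3 and 4 at 0.733 and 0.799 (others -0.49 and 0.065). B6J transgenic libraries ran from -0.573 to -0.173. What this axis stands for was not tested. In bulk tissue, fewer cells of a type and less RNA per cell cannot be told apart. Libraries differed within groups in choroid plexus, the tissue that makes cerebrospinal fluid. Its defining transcript Ttr stood at 2.58, 1.87, 256 and 1.87 CPM in B6N knockout libraries 1 to 4, against 170, 118, 2.73 and 130 CPM in B6N, and at 429, 1.77, 0.898 and 0.764 CPM in B6J, against 50.4, 5.2, 3.36 and 4.1 CPM in B6J transgenic. Library 3 of B6N knockout and library 1 of B6J and of B6J transgenic thus stood above the rest of their groups, and library 3 of B6N below its group. A fit without these 4 libraries is given beside the counts below. It leaves Ttr at 1.87 to 2.58 CPM in B6N knockout and 118 to 170 CPM in B6N, with no overlap. Choroid plexus and genotype therefore cannot be told apart in the B6N pair of that fit, and it is no check on choroid plexus there. The 17 choroid plexus genes summed to 241 to 711 CPM in B6N knockout and 249 to 522 CPM in B6N, and to 235 to 1000 CPM in B6J and 256 to 332 CPM in B6J transgenic, with none of them at 0 in every library. Genes of thalamus and hypothalamus, 17 of 19 of which were tested, summed to 210 to 313 CPM in B6N knockout, 227 to 296 CPM in B6N, 220 to 315 CPM in B6J and 223 to 423 CPM in B6J transgenic. By library the sums were 315, 221, 227 and 220 CPM in B6J, against 223, 311, 423 and 359 CPM in B6J transgenic. Their median log2 fold change was -0.03 with complete loss and -0.54 in the hypomorph (2 of 17 above 0). In the difference it was 0.39 (15 of 17 above 0), with no gene called. In the hypomorph none of 12 meninges genes (median -0.19) and none of 15 oligodendrocyte genes (median -0.1) lay above 0. The part of these tissues in the results was not tested beyond a fit with choroid plexus as a covariate.

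Complete loss changed 481 of 25151 genes, or 1.91%, of which 278 rose and 203 fell. The hypomorph state changed 63 genes, or 0.25%, of which 43 rose and 20 (0.0795%) fell. The difference between the effects passed the test for 15 genes, or 0.0596%, with 5 (0.0199%) higher and 10 (0.0398%) lower in the complete loss effect. Both effects were called for 29 genes, or 0.115%, of which 22 rose and 7 fell in both, and none moved in opposite directions with both effects called. DESeq2 called 54 genes in both effects in 1 direction and 3 in opposite directions, Camkk1, Mcf2l and the small nucleolar RNA Snora7a, named here after their values were seen. With the choroid plexus covariate 4 genes were called in opposite directions, without B6J transgenic 1 there were 3, and without B6J transgenic 2, B6J 1 or B6N knockout 4 there was 1 each. The 29 genes were 6.03% of the complete loss calls and 46% of the hypomorph calls. Unadjusted p was under 0.05 for 3185 genes in the complete loss effect, 2592 in the hypomorph effect and 2061 in the difference. With 3 libraries per group, after leaving out the 4 that stood apart in Ttr, the counts were 244, 223 and 33, with 36 genes called in both effects. With an offset for the transcript lengths estimated in each library, they were 174, 6 and 7, with 2 genes called in both. Leaving out 1 library at a time gave 262 (without B6N knockout 3) to 751 (without B6N knockout 4) complete loss calls, 16 (without B6J 3) to 196 (without B6J transgenic 1) hypomorph calls and 3 (without B6N knockout 3 or B6N 3) to 78 (without B6J transgenic 1) differences.

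Among the 481 genes called with complete loss, 407 (84.6%) had a hypomorph estimate of the same sign, and among the 63 called in the hypomorph, 53 (84.1%) had a complete loss estimate of the same sign. Over all genes tested that share was 54.3%. The complete loss calls had a median absolute log2 fold change of 0.24 in the complete loss effect and 0.1 in the hypomorph effect. These genes were chosen on their complete loss effect, so the pair of medians is a description. Across genes, which are not independent replicates, Pearson's r between the effects was 0.63 over the complete loss calls and -0.006 over all genes tested. The SE of the difference had a median of 0.17 over all genes and 0.07 over the complete loss calls, so that most genes with a modest effect could not be placed. For 444 genes called with complete loss, and 30 called in the hypomorph, neither the other effect nor the difference passed the test. They cannot be called particular to either state.

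**Figure D1:**
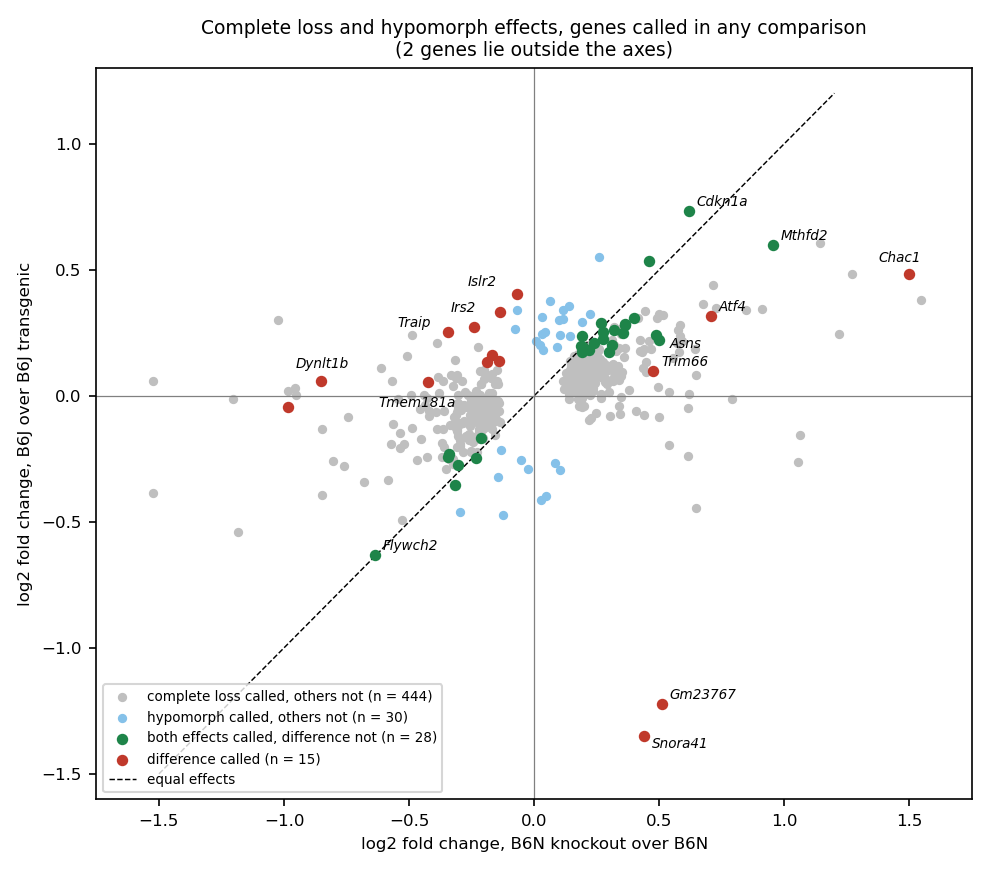
Each point is a gene called in any of the comparisons. The x axis gives the log2 fold change of B6N knockout over B6N and the y axis that of B6J over B6J transgenic, with a dashed line where both are equal. Green points are genes called in both effects without a called difference, and among them Asns and Mthfd2 lie to the right of the line. Atf4 and Chac1 also lie to its right, and Irs2, Islr2 and Traip lie above it on the left. Gm14406 and Sis lie outside the axes.

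The stress factor Atf4 rose in both states, and rose more with complete loss. Atf4 (ENSMUSG00000042406.8, chromosome 15 from 80255184 to 80257545, GRCm38) had 90.5, 96.4, 95 and 87.7 CPM in B6N knockout libraries, against 57.4, 57.1, 57.4 and 54.7 CPM in B6N. It had 77.5, 75.1, 72.6 and 73.7 CPM in B6J libraries, against 58.7, 61, 62.6 and 58 CPM in B6J transgenic. The 4 B6N knockout libraries were highest, the 4 B6J libraries came next, and neither overlapped its controls or the other. The log2 fold change was 0.71 ± 0.04 (SE) with complete loss and 0.32 ± 0.04 in the hypomorph (adjusted p = 3.3e-13 and 0.000137, edgeR). Their difference was 0.39 ± 0.06 (95% interval 0.27 to 0.51, adjusted p = 0.00125, edgeR). The hypomorph effect was 0.45 of the complete loss effect, with a 95% interval of 0.32 to 0.58. Transcript Atf4-201 made up 94.5% of the gene's counts, at 88.6 ± 4.3 CPM in B6N knockout and 52.9 ± 0.768 CPM in B6N, and at 71.2 ± 2.21 CPM in B6J and 55.6 ± 2.8 CPM in B6J transgenic (SD, n = 4 each). Atf4-203, annotated as a retained intron, was at 3.78 ± 1.03 CPM in B6N knockout and 3.71 ± 0.579 CPM in B6N, and at 3.43 ± 0.583 CPM in B6J and 4.5 ± 0.873 CPM in B6J transgenic, ranges that overlap.

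Chac1, a target of ATF4 that breaks down the antioxidant glutathione, rose with complete loss. Chac1 (ENSMUSG00000027313.3, chromosome 2 from 119351242 to 119354326) had 7.25, 7.29, 8.12 and 7.24 CPM in B6N knockout libraries, against 3.33, 2.51, 2.12 and 2.69 CPM in B6N. It had 3.58, 4.09, 3.66 and 4.52 CPM in B6J libraries, against 3.33, 2.71, 2.71 and 2.54 CPM in B6J transgenic. The groups did not overlap within either pair, but B6J libraries stayed well under those of B6N knockout. The log2 fold change was 1.5 ± 0.12 with complete loss (adjusted p = 3.86e-09) and 0.48 ± 0.14 in the hypomorph, which did not pass the test (adjusted p = 0.155, edgeR). The difference was 1.01 ± 0.19 (95% interval 0.63 to 1.4, adjusted p = 0.0228, edgeR), and the ratio of hypomorph to complete loss effect was 0.32 (0.13 to 0.53). The interval of the ratio did not reach 0, although the hypomorph effect did not pass adjustment over all genes. The difference lost its call without B6N knockout library 3 (adjusted p = 0.0874), B6N library 3 (0.0829) or 4 (0.0548), or B6J library 2 (0.0557) or 3 (0.0595), and with 3 libraries per group was 0.73 (adjusted p = 0.227, edgeR).

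Irs2 encodes an adaptor that passes signals from the insulin and IGF1 receptors to PI3 kinase, and it rose in the hypomorph. Irs2 (ENSMUSG00000038894.7, chromosome 8 from 10984681 to 11008929) had 51.2, 53.4, 44.8 and 53 CPM in B6N knockout libraries, against 55.9, 53.3, 57.3 and 55.9 CPM in B6N. It had 65.6, 62.9, 63.3 and 70.7 CPM in B6J libraries, against 50.7, 54.1, 52.1 and 51.7 CPM in B6J transgenic. All 4 B6J libraries were above the other 12, while B6N knockout and B6N overlapped. The log2 fold change was -0.14 ± 0.05 with complete loss (adjusted p = 0.183) and 0.33 ± 0.05 in the hypomorph (adjusted p = 0.000641, edgeR). The difference of -0.47 ± 0.07 (95% interval -0.61 to -0.33, adjusted p = 0.00125, edgeR) passed the test, so the effects differed, but the estimate below 0 with complete loss did not pass by itself. Of 34 genes of insulin and IGF signalling, 2 fell with complete loss, the kinase Akt1 (-0.16 ± 0.04) and the transcription factor Foxo3 (-0.20 ± 0.05), and Irs2 was the sole hypomorph call and the sole one in the difference. Over all genes tested, 0.807% fell with complete loss, 0.25% were called in the hypomorph and 0.0596% in the difference. The calls of Akt1 and Foxo3 ended in 6 and 7 of 16 fits that left out 1 library (adjusted p up to 0.0928 and 0.157, both without B6N knockout 1), and with 3 libraries per group. The receptor genes Insr and Igf1r had differences of 0.03 ± 0.06 and -0.07 ± 0.06, and the related adaptor Irs1 one of -0.12 ± 0.08 (adjusted p = 0.927, 0.825 and 0.741, edgeR).

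**Figure D2:**
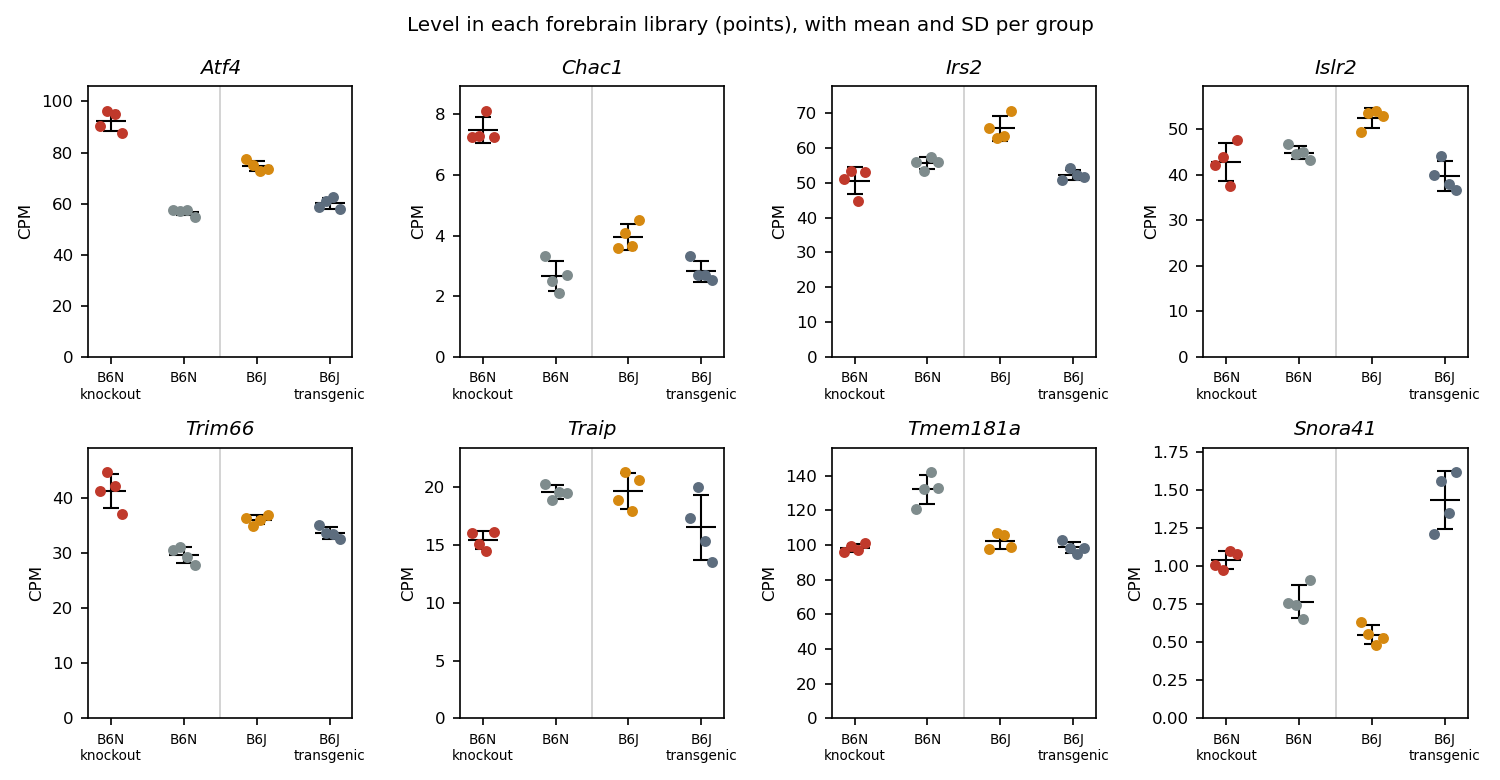
Each panel gives the level of a gene in CPM on a y axis that starts at 0, with a point per library and the mean and SD of each group of 4. B6N knockout stands beside B6N, and B6J beside B6J transgenic, across the grey line. Atf4 is highest in B6N knockout and intermediate in B6J, Irs2 is highest in B6J, and Tmem181a is highest in B6N alone.

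Of the 15 genes whose effects differed, 8 were called with complete loss and not in the hypomorph, 4 in the hypomorph and not with complete loss, 1 (Atf4) in both and 2 in neither. The estimates had opposite signs in 11 of the 15. Choosing genes by a large difference favours opposite signs, and over all genes tested 54.3% had the same sign. For Tmem181a, Dynlt1b and Islr2, 1 of the effects had a 95% interval that included 0. These were -0.04 to 0.14 and -0.19 to 0.31 in the hypomorph, and -0.19 to 0.05 with complete loss for Islr2. Beside Chac1, Trim66, a chromatin reader of the TRIM family, was called on the complete loss side. It had 41.1, 44.6, 42.1 and 37.1 CPM in B6N knockout libraries, against 30.5, 31, 29.3 and 27.7 CPM in B6N, and 36.2, 34.9, 35.9 and 36.8 CPM in B6J libraries, against 35, 33.6, 33.3 and 32.4 CPM in B6J transgenic. The B6N pair did not overlap and the B6J pair did. Its effects were 0.48 ± 0.05 and 0.10 ± 0.05, and their difference 0.38 ± 0.07 (adjusted p = 0.0301, edgeR). The ratio of 0.21 had an interval of -0.02 to 0.45, so a response of 0 in the hypomorph lay within it.

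Islr2, a membrane protein of developing axons, moved like Irs2. It had 42.1, 43.8, 37.5 and 47.6 CPM in B6N knockout libraries, against 46.7, 44.5, 44.9 and 43.3 CPM in B6N, and 49.4, 53.6, 54.1 and 52.9 CPM in B6J libraries, against 40, 44.1, 37.9 and 36.7 CPM in B6J transgenic. The B6J libraries were above all others. Its effects were -0.07 ± 0.06 with complete loss and 0.40 ± 0.06 in the hypomorph (adjusted p = 0.708 and 0.00101), and the difference was -0.47 ± 0.08 (adjusted p = 0.0206, edgeR). Islr2 has many annotated transcripts, and with the offset for transcript length both its hypomorph call and its difference call ended. The difference call also ended without the robust step of edgeR.

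Traip, a ubiquitin ligase of DNA replication, Mcf2l and Mtmr4, a phosphatase of phosphoinositide lipids, fell with complete loss and had estimates above 0 in the hypomorph. Traip had 16, 15.1, 14.5 and 16.1 CPM in B6N knockout libraries, against 20.3, 18.9, 19.6 and 19.5 CPM in B6N, and 18.9, 21.3, 17.9 and 20.6 CPM in B6J libraries, against 17.3, 20, 15.3 and 13.5 CPM in B6J transgenic. All B6N knockout libraries were below those of B6N, while the B6J pair overlapped. Traip's effects were -0.35 ± 0.08 and 0.25 ± 0.08, with a difference of -0.60 ± 0.12 (adjusted p = 0.0301, edgeR). Mcf2l had effects of -0.17 ± 0.04 and 0.16 ± 0.04 (difference -0.33 ± 0.06, adjusted p = 0.0206) and Mtmr4 of -0.19 ± 0.04 and 0.13 ± 0.04 (difference -0.32 ± 0.06, adjusted p = 0.0274, edgeR). The hypomorph estimates of these 3 genes had adjusted p of 0.229, 0.112 and 0.222. Zswim4, a zinc finger protein, and Camkk1, a kinase that activates calmodulin-dependent kinases, were called in neither effect, with estimates of -0.24 ± 0.07 and 0.27 ± 0.07 for Zswim4 and -0.14 ± 0.04 and 0.14 ± 0.04 for Camkk1. Their differences were -0.51 ± 0.10 (adjusted p = 0.0301) and -0.28 ± 0.06 (adjusted p = 0.037, edgeR). In Camkk1 all 4 B6N knockout libraries were below B6N and all 4 B6J libraries above B6J transgenic. Leaving out 1 library at a time ended the difference call in 9 of 16 fits for Traip and for Trim66, 8 for Mcf2l and for Mtmr4, 11 for Zswim4, 13 for Camkk1 and 7 for Islr2, with adjusted p up to 0.12 (Camkk1 without B6N knockout 3). The complete loss call ended in 6 of 16 fits for Mcf2l (adjusted p up to 0.187 without B6N knockout 3) and in 4 each for Traip and Mtmr4 (up to 0.0856 without B6N knockout 3 and 0.0897 without B6N 3), and for all 3 genes with 3 libraries per group.

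Tmem181a, Dynlt1b and Tmem181b-ps lie close together on chromosome 17 (from 6256726 to 6308314, 6429530 to 6440500 and 6439002 to 6450994), in a region of near-identical copies whose reads estimation can split, so their separate levels are uncertain. Tmem181a, a transmembrane protein, had 95.9, 99.6, 97.1 and 101 CPM in B6N knockout libraries, against 121, 132, 142 and 133 CPM in B6N, and 97.8, 107, 106 and 98.6 CPM in B6J libraries, against 103, 98.1, 95 and 98 CPM in B6J transgenic. B6N alone stood apart, and B6N knockout was at the level of both B6J groups. Its effects were -0.42 ± 0.04 and 0.05 ± 0.04, with a difference of -0.48 ± 0.06 (adjusted p = 0.000291, edgeR). Dynlt1b, a dynein light chain, showed the same order, with 5.36 ± 0.322 CPM in B6N knockout, 9.68 ± 0.81 CPM in B6N, 6.18 ± 1.11 CPM in B6J and 5.83 ± 0.98 CPM in B6J transgenic (SD, n = 4 each). Its difference was -0.91 ± 0.16 (adjusted p = 0.0206, edgeR). The pseudogene Tmem181b-ps had 46.5, 49.7, 45.8 and 48.7 CPM in B6N knockout libraries, against 73.8, 100, 102 and 100 CPM in B6N, with B6N library 1 below its group, and 53.6 ± 3.95 CPM in B6J and 55.3 ± 4.61 CPM in B6J transgenic. Its difference was -0.94 ± 0.14 (adjusted p = 0.0301, edgeR). Leaving out 1 library ended the difference of Tmem181a in none of 16 fits, of Dynlt1b in 4 and of Tmem181b-ps in 11. Whether these 3 follow n-Tr20 or other differences between B6N and B6N knockout mice was not tested.

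The small nucleolar RNAs Snora41 and Gm23767 fell in the hypomorph, and B6J transgenic had the highest group mean for both. For Gm23767 the B6J libraries overlapped those of B6N. Whether B6J was low or B6J transgenic high was not tested. Snora41 had 1.01, 0.978, 1.1 and 1.08 CPM in B6N knockout libraries, against 0.762, 0.748, 0.651 and 0.912 CPM in B6N, and 0.637, 0.553, 0.483 and 0.529 CPM in B6J libraries, against 1.21, 1.56, 1.35 and 1.62 CPM in B6J transgenic. B6J transgenic was highest and B6J lowest, with no overlap within either pair. Its effects were 0.44 ± 0.21 and -1.35 ± 0.23, with a difference of 1.79 ± 0.31 (adjusted p = 0.0194, edgeR). Gm23767 had 1.41 ± 0.341 CPM in B6N knockout, 1.01 ± 0.213 CPM in B6N, 0.859 ± 0.247 CPM in B6J and 2.04 ± 0.558 CPM in B6J transgenic (SD, n = 4 each), and a difference of 1.74 ± 0.34 (adjusted p = 0.0301, edgeR). Both are short RNAs with few counts, and leaving out 1 library ended their differences in 3 and 9 of 16 fits. The hypomorph call of Gm23767 ended in 5 of 16 fits (adjusted p up to 0.115 without B6J 4, edgeR) and with the offset for transcript length.

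Beside Atf4, 28 genes were called in both effects without a called difference. Over all 29, the hypomorph effect was 0.44 to 1.22 of the complete loss effect, with a median of 0.82, and the ratio was above 1 for 7. The 95% interval of the ratio included 1 for 24 genes. It lay below 1 for 5, namely Atf4, Asns, Cars, Yars and Mthfd2, all members of the stress lists. Requiring a call in both effects keeps genes whose estimates are large in each, so these ratios describe the genes and are not an estimate over all targets. Groups did not overlap for 29 of the 29 genes in the complete loss pair and for 28 in the hypomorph pair. The genes were chosen by their calls in these same libraries, so gaps between groups follow largely from the choice. The share of such gaps over all genes was not counted.

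Nudt3, a hydrolase of diphosphoinositol phosphates and messenger RNA caps, rose in both states. It had 208, 227, 211 and 210 CPM in B6N knockout libraries, against 165, 167, 162 and 156 CPM in B6N, and 206, 200, 202 and 195 CPM in B6J libraries, against 168, 163, 158 and 159 CPM in B6J transgenic. Its effects were 0.40 ± 0.04 and 0.31 ± 0.04 (adjusted p = 3.09e-08 and 4.9e-05, edgeR), with a ratio of 0.78 (0.56 to 1.05). Adar, which converts adenosine to inosine in double-stranded RNA, had 170, 175, 168 and 165 CPM in B6N knockout libraries, against 134, 135, 129 and 129 CPM in B6N. In the other pair Adar had 167, 158, 166 and 168 CPM in B6J libraries, against 139, 140, 139 and 123 CPM in B6J transgenic, and its ratio was 0.78 (0.53 to 1.12). For both genes the groups of each pair were fully apart and the difference did not pass the test (0.09 ± 0.05 and 0.08 ± 0.06, adjusted p = 0.693 and 0.761, edgeR).

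Fbxw11 and Btrc encode the paired F-box proteins known as beta-TrCP, which pick substrates for a ubiquitin ligase, and both rose in both states. Fbxw11 had 105 ± 2.32 CPM in B6N knockout and 88.6 ± 3.0 CPM in B6N, and 102 ± 1.66 CPM in B6J and 88.5 ± 1.57 CPM in B6J transgenic (SD, n = 4 each). Btrc had 87.6, 89.1, 83.8 and 83.9 CPM in B6N knockout libraries, against 76.9, 75.6, 75.4 and 73.7 CPM in B6N, and 85.6, 84.5, 85.7 and 84.2 CPM in B6J libraries, against 75.5, 75.5, 75.8 and 74.6 CPM in B6J transgenic. Their ratios were 0.88 (0.53 to 1.41) and 0.91 (0.49 to 1.64), and their differences 0.03 ± 0.05 and 0.02 ± 0.05. Rapgef4, a cyclic AMP sensor that activates Rap GTPases, Arrb1, which desensitizes receptors coupled to G proteins, and Dgkb, a diacylglycerol kinase, rose with ratios of 0.91, 0.82 and 1.06. Mfn2, which fuses mitochondria, had the highest ratio at 1.22 (0.61 to 2.72), and Cdkn1a, an inhibitor of the cell cycle, had 1.18 (0.66 to 2.23). Cdkn1a stood at 8.69 ± 0.889 CPM in B6N knockout and 5.66 ± 0.812 CPM in B6N, and at 10.1 ± 1.27 CPM in B6J and 6.09 ± 1.31 CPM in B6J transgenic (SD, n = 4 each). Also rising in both were A830018L16Rik, Bex2, Nabp2, Serpinb8, Smarca1, Bzw1 and Fam8a1, with ratios of 0.65 to 1.17. Leaving out 1 library ended the hypomorph call of Fam8a1 in 12 of 16 fits (adjusted p up to 0.213 without B6J 3, edgeR). It ended that of Nabp2 and Mfn2 in 6 fits each, Arrb1 and Btrc in 5, Cdkn1a in 4, Dgkb and Bzw1 in 3, Smarca1 in 2 and Bex2 in 1. The complete loss call ended for Mfn2 in 5 fits and for Nabp2 in 3.

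The 7 genes that fell in both states were Scg5, Tmsb10, Ccdc136, Flywch2, Eml2, Rab2a and Catspere2. Flywch2 had 2.92, 2.93, 3.34 and 3.62 CPM in B6N knockout libraries, against 5.33, 4.58, 5.01 and 5.1 CPM in B6N, and 3.28, 3.43, 3.87 and 3 CPM in B6J libraries, against 5.22, 5.31, 5.5 and 4.91 CPM in B6J transgenic. Its effects were -0.63 ± 0.11 and -0.63 ± 0.12 (ratio 1, interval 0.57 to 1.74), the nearest to equal of the 7. Scg5, a chaperone of the prohormone convertase PC2, had 94.2 ± 5.3 CPM in B6N knockout and 119 ± 2.8 CPM in B6N, and 105 ± 3.19 CPM in B6J and 123 ± 2.37 CPM in B6J transgenic (SD, n = 4 each), with a ratio of 0.67 (0.42 to 1.01). Tmsb10, a protein that binds actin monomers, and Rab2a, a GTPase of traffic between ER and Golgi, had ratios of 1.06 and 0.79. For none of the 7 did the difference pass the test. Leaving out 1 library ended the hypomorph call of Rab2a in 6 of 16 fits. It ended that of Ccdc136, Eml2 and Catspere2 in 3 fits each, and of Tmsb10 and Flywch2 in 1 each. The count of shared genes depended on single libraries. Without B6J library 3, 11 genes were called in both effects, without B6J library 2, 13, without B6J library 4, 16, and without B6J transgenic library 4, 17.

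**Figure D3:**
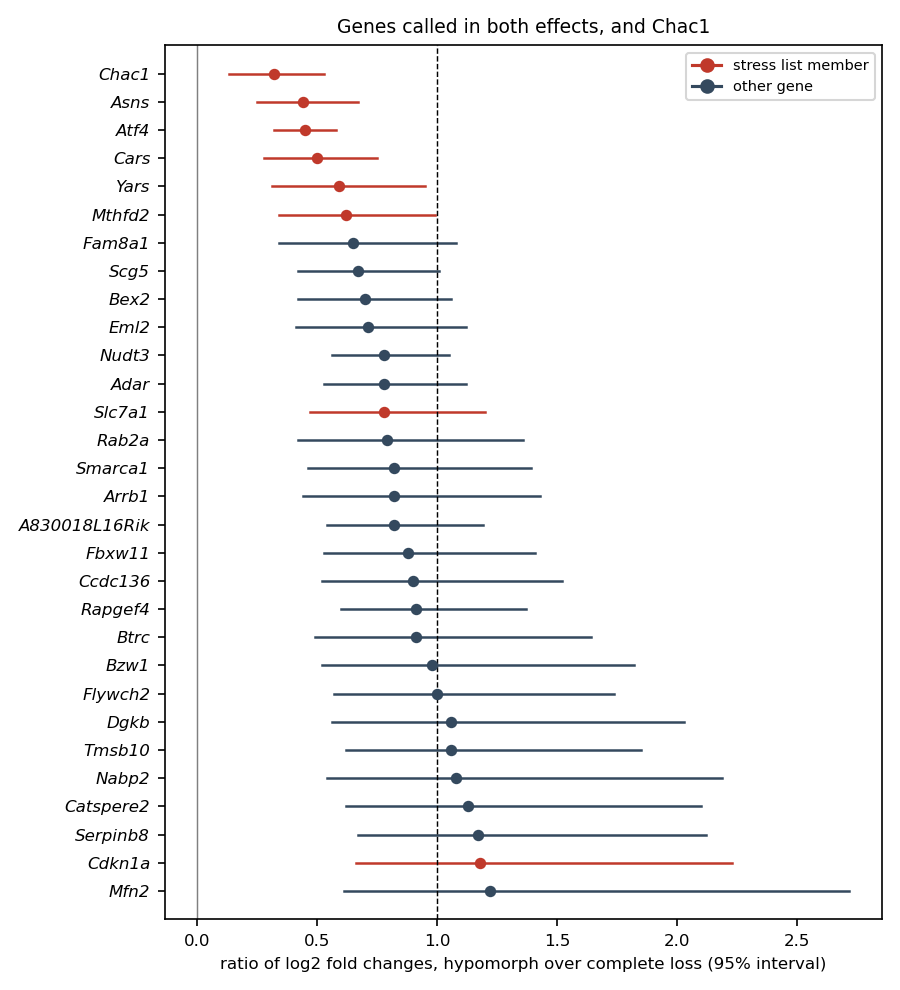
The x axis gives the hypomorph effect divided by the complete loss effect, on the log2 scale, for the 29 genes called in both and for Chac1, with 95% intervals. The dashed line marks equal effects. Members of the stress lists (red) lie mostly at the low end, from 0.32 for Chac1, while the intervals of 24 of the 29 genes reach 1.

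Over 7 lists of genes that supply amino acids, charge tRNAs or otherwise belong to the stress response, 33 of the 91 genes tested rose and 1 fell with complete loss, against 278 and 203 of 25151 genes in all. In the hypomorph 7 of the 91 rose and none fell, against 43 and 20 of 25151 genes in all, and 2 (Atf4 and Chac1) had a larger effect with complete loss by the test of the difference. For the 33 that rose, the hypomorph effect was a median of 0.44 of the complete loss effect, with a range of -0.2 to 1.18. The interval of the ratio lay between 0 and 1 for 13 of them, reached 0 but not 1 for 11, reached 1 but not 0 for 7, and held both for 2. The 245 other genes that rose had a median ratio of 0.4, and the 203 that fell one of 0.26, so the size of the median did not set the stress genes apart from the other genes that rose. The interval lay between 0 and 1 for 18 of the 245 and 6 of the 203. Their median complete loss effects were 0.22 and -0.25, against 0.32 for the 33 stress genes. Whether effect size accounts for these shares was not tested. These lists were chosen with results from these libraries known, and their direction is no independent evidence. With 3 libraries per group 24 of the 91 rose with complete loss, and with the offset for transcript length 19 did.

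Among 20 cytosolic tRNA synthetases, the enzymes that charge tRNAs with amino acids, 12 rose and 1 fell with complete loss (median log2 fold change 0.17), and 2 rose in the hypomorph (median 0.06). The difference was above 0 for 18 of 20, with a median of 0.14, and passed the test for none (11 had an unadjusted p under 0.05, and DESeq2 called 2), while 12790 of 25151 genes in all lay above 0. Cars, for cysteine, had 42.4, 46, 44.9 and 41 CPM in B6N knockout libraries, against 31.1, 30.6, 30.6 and 32 CPM in B6N, and 34.5, 35.9, 38.1 and 36.9 CPM in B6J libraries, against 30.3, 30, 30.3 and 32.3 CPM in B6J transgenic. It rose in both, with B6J between the other groups, and its ratio was 0.5 (0.28 to 0.75). Yars, for tyrosine, rose in both, by 0.30 ± 0.04 and 0.18 ± 0.04, but its hypomorph call ended in 13 of 16 fits that left out 1 library (adjusted p up to 0.147 without B6J 3), and that of Cars in 4 (up to 0.106 without B6J 3). Nars, for asparagine, had effects of 0.35 ± 0.04 and 0.09 ± 0.04, and its difference of 0.26 ± 0.05 came just short of the threshold (adjusted p = 0.0536, edgeR). Gars, for glycine, had 0.32 ± 0.04 and 0.09 ± 0.04 (difference adjusted p = 0.163). Rars, which charges arginine tRNAs, was not called in either effect, and Hars, for histidine, was the synthetase that fell with complete loss. None of 17 mitochondrial synthetases was called in either effect by edgeR or DESeq2 (3 had an unadjusted p under 0.05 with complete loss and 0 in the hypomorph).

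Of 13 enzymes of amino acid and one-carbon folate metabolism, 7 rose with complete loss (median 0.29) and 2, Asns and Mthfd2, rose in the hypomorph (median 0.18). Asns, which makes asparagine, had 89.3, 94.9, 88.1 and 87.2 CPM in B6N knockout libraries, against 67.6, 60.5, 64.1 and 62.2 CPM in B6N, and 72.2, 67.5, 74.8 and 65 CPM in B6J libraries, against 61.9, 57.7, 62.1 and 57.7 CPM in B6J transgenic. The groups of each pair were apart, and the ratio was 0.44 (0.25 to 0.67). Although this interval lies below 1, the difference of 0.28 ± 0.07 did not pass adjustment over all genes (adjusted p = 0.114, edgeR). Leaving out 1 library ended the hypomorph calls of Asns and Mthfd2 in 5 of 16 fits each (adjusted p up to 0.158 and 0.12, both without B6J 3). Mthfd2, a mitochondrial folate enzyme, had 7.13 ± 0.384 CPM in B6N knockout and 3.67 ± 0.166 CPM in B6N, and 5.42 ± 0.76 CPM in B6J and 3.6 ± 0.609 CPM in B6J transgenic (SD, n = 4 each), with a ratio of 0.62 (0.34 to 0.99). Aldh1l2, another mitochondrial folate enzyme, had effects of 0.84 ± 0.10 and 0.34 ± 0.10, of which the complete loss effect passed the test.

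Of 11 amino acid transporters, 4 rose with complete loss and 1 in the hypomorph. The transporters of arginine and lysine differed in their estimates. Slc7a1 had 47.3, 49, 44.3 and 50.1 CPM in B6N knockout libraries, against 37.2, 37.2, 37.3 and 36.5 CPM in B6N, and 45.3, 40, 46.3 and 42.7 CPM in B6J libraries, against 34.8, 37.3, 35.6 and 35.5 CPM in B6J transgenic. It rose in both, with a ratio of 0.78 (0.47 to 1.2). Slc7a3 had 18, 14.9, 13 and 12.3 CPM in B6N knockout libraries, against 6.86, 4.93, 7 and 6.05 CPM in B6N, and 6.42, 5.81, 7.8 and 5.7 CPM in B6J libraries, against 5.46, 4.45, 6.12 and 5.43 CPM in B6J transgenic. It rose with complete loss (1.22 ± 0.12), and its B6J libraries overlapped the B6J transgenic libraries (0.24 ± 0.15, adjusted p = 0.612). The ratio was 0.20 (-0.05 to 0.47), and the difference of 0.98 ± 0.19 missed the threshold (adjusted p = 0.0596, edgeR). Slc7a5 and Slc1a4, carriers of large and of small neutral amino acids, rose with complete loss and had ratios of 0.64 (0.29 to 1.15) and 0.53 (0.21 to 0.95).

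Of 9 stress transcription factors, 3 rose with complete loss, Atf4, Atf5 and Cebpg, and Atf4 rose in the hypomorph. Atf5 had effects of 0.68 ± 0.11 and 0.36 ± 0.12, with a ratio of 0.54 (0.17 to 1.03). Ddit3, which encodes the factor CHOP, had 0.17 ± 0.07 and 0.01 ± 0.07 and was called in neither. Of 9 genes that restrain mTORC1 or are secreted under stress, 4 rose with complete loss, among them Stc2, a secreted glycoprotein (1.14 ± 0.16), and Sesn2, an inhibitor of mTORC1 (0.57 ± 0.09), and Cdkn1a rose in the hypomorph. Of 11 genes of glutathione turnover, Chac1 was the sole call in any comparison. Of 18 genes of eIF2 signalling and ribosome rescue, Eif2s1 and Eif2s2, subunits of eIF2 itself, rose with complete loss (0.22 ± 0.06 and 0.20 ± 0.05) and none was called in the hypomorph by edgeR or DESeq2 (1 had an unadjusted p under 0.05). Without single libraries the calls ended for Eif2s1 in 10, Eif2s2 in 6 and Cebpg in 7 of 16 fits (adjusted p up to 0.238, 0.0912 and 0.143, each without B6N knockout 1), and the choroid plexus covariate ended all 3.

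The motif TGATGNAA, the core shared by sites of ATF4 with C/EBP partners, was searched on both strands from 250 bases before to 50 bases after each gene's start in RefSeq sequences of GRCm38.p6. It occurred in 1219 of 27025 promoters (4.51%), in 8 of 25 stress list genes that rose with complete loss (32%), in 15 of 205 genes that rose (7.32%) and 8 of 152 that fell (5.26%). Among genes called in both effects it was in 2 of 24 (8.33%), and among those called in the difference in 2 of 10 (20%), Chac1 and Mcf2l. The 8 stress list genes are among the 15 genes that rose and hold the motif. The stress lists hold kinds of genes that ATF4 turns on and were chosen with results known. Their share with the motif is therefore no independent evidence, and members that did not rise were not counted. A match describes the letters and shows no binding. The following 3 stretches hold the motif in capitals (for Chac1 and Gars on the opposite strand, so that its reverse complement is printed) and are shown since their genes span the range of responses, Chac1 with a called difference, Asns called in both effects, and Gars called with complete loss alone and its difference not. They are Chac1 at chr2:119351009-119351108 on the plus strand, Asns at chr6:7693210-7693272 on the minus strand and Gars at chr6:55037931-55038000 on the plus strand, each written 5′ to 3′ in the gene's direction.
Chac1: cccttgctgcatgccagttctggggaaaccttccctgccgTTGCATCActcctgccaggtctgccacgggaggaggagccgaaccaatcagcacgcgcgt
Asns: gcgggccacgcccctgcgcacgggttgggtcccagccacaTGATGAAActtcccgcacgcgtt
Gars: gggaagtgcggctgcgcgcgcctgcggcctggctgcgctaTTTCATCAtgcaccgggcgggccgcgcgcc
The match lies 193 bases before the start in Chac1, 23 in Asns and 30 in Gars. Yars, Aars, Slc1a4, Iars and Tars also held it, within 112 bases of the start.

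Genes that respond to glucocorticoid hormone had mostly negative differences. Of 18 such genes, Cdkn1a rose and Tsc22d3, an anti-inflammatory target also called GILZ, fell with complete loss (median -0.08), and Fkbp5, a chaperone that dampens the receptor, and Cdkn1a rose in the hypomorph (median 0.13). Over all genes tested, 1.11% rose and 0.807% fell with complete loss, and 0.171% rose in the hypomorph. The difference was above 0 for 1 of 18, with a median of -0.28, and passed the test for none (8 had an unadjusted p under 0.05, and DESeq2 called 1). Fkbp5 had 38.5, 30.5, 30.7 and 31.4 CPM in B6N knockout libraries, against 29.9, 33.5, 31.8 and 32.7 CPM in B6N, and 35.2, 34.4, 34.7 and 32.4 CPM in B6J libraries, against 27.2, 26.2, 27.8 and 29 CPM in B6J transgenic. The B6J pair was apart and the B6N pair overlapped (difference -0.28 ± 0.09, adjusted p = 0.291, edgeR). Tsc22d3 had effects of -0.32 ± 0.06 and 0.14 ± 0.06, with a difference of -0.46 ± 0.09 (adjusted p = 0.054, edgeR). The choroid plexus list leaned the same way, with medians of -0.30 with complete loss, 0.51 in the hypomorph and -1.02 in the difference, which was below 0 for all 17 genes and called for none, by edgeR or DESeq2 (0 had an unadjusted p under 0.05). Without the 4 libraries that stood apart in Ttr, the complete loss call of Tsc22d3 and the hypomorph call of Fkbp5 ended, while the choroid plexus covariate ended neither. The fit without those 4 leaves no overlap in Ttr between B6N knockout and B6N, so it cannot separate choroid plexus from genotype in that pair. The Fkbp5 call also ended in 2 of 16 fits that left out 1 library (adjusted p up to 0.0795 without B6J 3), and the hypomorph call of Cdkn1a in 4 (up to 0.0592 without B6J 2).

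**Figure D4:**
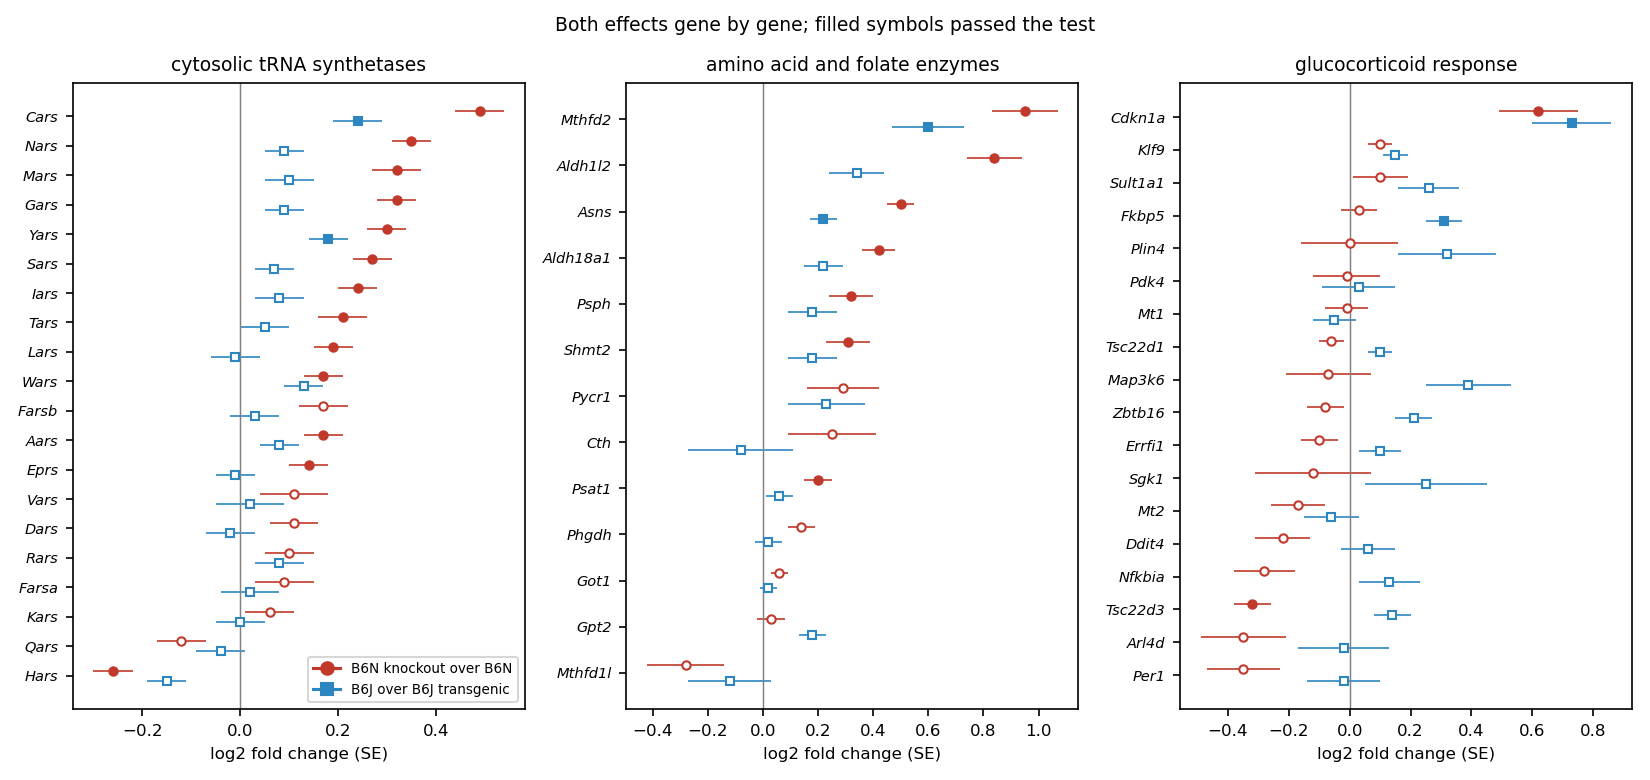
Log2 fold changes with SE for every member of 3 gene lists, with complete loss in red circles and the hypomorph in blue squares, filled where the test was passed. Most synthetases and enzymes have the red symbol to the right of the blue one, while in the glucocorticoid list the blue symbol is to the right for all but 1 gene.

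Lists of neuronal and clock genes were also counted, beside 1.91% of all genes called with complete loss and 0.25% in the hypomorph. Of 21 neuropeptide genes, 4 rose with complete loss and none in the hypomorph by edgeR or DESeq2 (2 had an unadjusted p under 0.05). Among them were Cort, the cortistatin of some interneurons (1.27 ± 0.15, against 0.48 ± 0.15 in the hypomorph), and Adcyap1, which encodes the peptide PACAP (0.79 ± 0.14, against -0.01 ± 0.15). Their differences were 0.79 ± 0.21 and 0.80 ± 0.20 (adjusted p = 0.191 and 0.209, edgeR), so a difference was not shown. The Adcyap1 call ended with 3 libraries per group. Bdnf, a growth factor of neurons, rose with complete loss (0.59 ± 0.07) and had a ratio of 0.37 (0.11 to 0.68). Its difference did not pass the test (adjusted p = 0.218, edgeR). Bdnf was counted among 30 immediate early genes, of which 2 rose and 1, Klf4 (-0.80 ± 0.14), fell with complete loss. That list leaned the other way, with a median of -0.14 and 10 of 30 above 0. None of the 30 was called in the hypomorph by edgeR, and DESeq2 called 2. Of 17 interneuron markers 5 fell and 1 rose with complete loss, and none was called in the hypomorph (4 had an unadjusted p under 0.05, and DESeq2 called 1). Htr3a, the serotonin channel of a class of interneurons, fell by 0.85 ± 0.14 on the log2 scale. Of 21 clock genes 1, Arntl, rose and 4 fell with complete loss, among them Per3 (-0.36 ± 0.08) and Tef (-0.30 ± 0.05), and Csnk1d, a clock kinase, rose in the hypomorph (0.20 ± 0.04). The call ended without single libraries for Per3 in 6, Arntl in 4 and Csnk1d in 3 of 16 fits (adjusted p up to 0.109 without B6N knockout 3, 0.0587 without B6N 4 and 0.103 without B6J transgenic 4), and 3 libraries per group ended those of Per3 and Arntl. Of 13 GABA-A receptor subunits none was called in either effect (3 and 1 had an unadjusted p under 0.05, and DESeq2 called 2 and 0), of 22 glutamate receptors 2 rose and 1 fell with complete loss, and of 24 potassium channels 2 rose with complete loss. None of the neuropeptide, interneuron or clock genes passed the test of the difference (5, 6 and 8 had an unadjusted p under 0.05, and DESeq2 called 1, 2 and 0). The hour of tissue collection is not given in the sources used here.

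Just outside the threshold of the difference stood further genes called in a single effect. On the complete loss side Spata2l fell (-0.22 ± 0.06) with a hypomorph estimate of 0.19 ± 0.06 (difference adjusted p = 0.0536), Cyb5r1, a cytochrome b5 reductase, rose (0.62 ± 0.10, against -0.05 ± 0.11, difference adjusted p = 0.0668), and Fbxo21, an F-box protein, fell (-0.15 ± 0.04, against 0.10 ± 0.04, difference adjusted p = 0.0784, edgeR). On the hypomorph side the kinase Nuak1 rose (0.27 ± 0.05, against -0.08 ± 0.05 with complete loss), as did Pfkfb3, which promotes glycolysis (0.34 ± 0.07, against -0.07 ± 0.07), while Gpr12, a receptor coupled to G proteins, fell (-0.41 ± 0.08, against 0.03 ± 0.08). Their differences had adjusted p of 0.0784, 0.114 and 0.136. The transcripts Gm47821 and Gm47476 fell in the hypomorph by 0.29 ± 0.07 and 0.27 ± 0.06 on the log2 scale, with complete loss estimates of 0.10 ± 0.06 and 0.08 ± 0.06. The complete loss calls of Spata2l and Fbxo21 ended in 9 and 7 of 16 fits that left out 1 library (adjusted p up to 0.215 without B6N knockout 3 and 0.128 without B6N knockout 2). The hypomorph calls ended for Nuak1 in 5, Pfkfb3 and Gpr12 in 2 each, Gm47821 in 11 and Gm47476 in 8 fits (adjusted p up to 0.0817, 0.12 and 0.204 for Nuak1, Pfkfb3 and Gm47821 without B6J 3, 0.0754 for Gpr12 without B6J 2, and 0.182 for Gm47476 without B6J transgenic 4).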

How the data were processed

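Per the labels' protocols, stranded libraries were made from forebrain total RNA after removal of ribosomal RNA. The authors deposited estimated counts and effective lengths per transcript, in kallisto's layout and not normalized; kallisto 0.42.4 and mm10 are named in the submitters' processing notes, without saying which file each made. Estimated counts of 138835 transcripts were summed per gene (54752 genes) and rounded. All 16 libraries were fitted together in edgeR 4.0.16 (R 4.3.3; TMM, filterByExpr at a minimum count of 10, robust quasi-likelihood F test, two-sided, 1 coefficient per group), giving a common biological coefficient of variation of 7.04%. CPM used TMM-scaled library sizes. Each SE was taken as the absolute log2 fold change divided by the square root of F, and all 95% intervals were built from it. Ratios of effects have Fieller 95% intervals. Intervals can therefore part slightly from the test, as for Snora41 with complete loss (0.01 to 0.87, unadjusted p = 0.0509, edgeR). Totals of 14.7 to 24.2 M (M, 1000000 counts) limit precision for low genes, and intervals cover the spread among these libraries. Positions and promoters are RefSeq's (GRCm38.p6). p-values treat libraries as separate mice, as their numbering implies.

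The members, gene lists and tests were chosen with earlier results of these data known. Genes were named if they were Atf4, Chac1 or Irs2, called in the difference, among 12 called in both effects, next in line (6 per effect), or among up to 4 called per list; the remaining genes called in both effects, and the uncalled list members given beside called ones, were added after their values were seen. There were 31 lists. Alternatives were DESeq2 1.42.0, other scaling, no filter, no robust step, an offset from the deposited effective lengths, choroid plexus as a covariate, a replicate block, either pair of groups alone and leaving out each library. Replicate numbers did not pair the libraries (see the dependence on processing). AGA codon content was not analysed here.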

Additional observations from a re-analysis of the deposited data

Results flagged for a closer look

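The effects of complete loss and of the hypomorph differed, by the test of the difference, for 15 genes. The log2 difference was above 0 for Atf4 (0.39), Chac1 (1.01), Trim66 (0.38), Snora41 (1.79) and Gm23767 (1.74). It was below 0 for Irs2 (-0.47), Islr2 (-0.47), Tmem181a (-0.48), Dynlt1b (-0.91), Tmem181b-ps (-0.94), Traip (-0.60), Zswim4 (-0.51), Mcf2l (-0.33), Mtmr4 (-0.32) and Camkk1 (-0.28). Only 3 of them, Atf4, Irs2 and Tmem181a, kept their call in each of the 16 fits that left out 1 library.

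Single libraries stood apart from the other 3 of their group by Dixon's test in 10 of 172 groups of 4, over 43 genes, where chance gives about 1 in 20. In B6N knockout these were Chac1 in library 3 (8.12 CPM, others 7.24 to 7.29), Nudt3 in library 2 (227, others 208 to 211) and Smarca1 in library 4 (75.5, others 78 to 78.4). In B6N they were Atf4 in library 4 (54.7, others 57.1 to 57.4), Tmem181b-ps in library 1 (73.8, others 100 to 102) and Slc7a1 in library 4 (36.5, others 37.2 to 37.3). In B6J library 3, Smarca1 was at 82.2 CPM (others 72.4 to 73.6). In B6J transgenic library 4, Cars was at 32.3 (others 30 to 30.3), Adar at 123 (others 139 to 140) and Catspere2 at 19.2 CPM (others 16.8 to 17.1).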

How the results depend on the processing

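Among the single gene results followed, none changed direction under any alternative. These were effects called in the main fit, so estimates that were not called had no such check. The number of genes called in both effects in opposite directions went from 0 to 3 with DESeq2 and to 4 with the choroid plexus covariate. Of the single gene results, 2733 kept and 521 lost their call over all alternatives. Against 481, 63 and 15 genes called with complete loss, in the hypomorph and in the difference, the transcript length offset gave 174, 6 and 7, with 2 instead of 29 shared genes, 19 instead of 33 stress genes, and a Chac1 difference of 0.99 (adjusted p = 0.101, edgeR). DESeq2 gave 177 in the hypomorph, 44 in the difference and 54 shared. The choroid plexus covariate gave 115 and 57, and no filter on low counts 106 and 46, in the hypomorph and the difference. Without the robust step 5 differences were called, and that of Chac1 was 1.01 (adjusted p = 0.0693, edgeR). With 3 libraries per group, chosen after seeing the data, the counts were 244, 223 and 33, and the Chac1 difference was 0.73 (adjusted p = 0.227, edgeR). In that fit choroid plexus and genotype cannot be told apart in the B6N pair. The cause of these changes was not tested.

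Leaving out 1 library gave 262 (without B6N knockout 3) to 751 (without B6N knockout 4) genes with complete loss, 16 (without B6J 3) to 196 (without B6J transgenic 1) in the hypomorph, and 3 (without B6N knockout 3 or B6N 3) to 78 (without B6J transgenic 1) in the difference. Shared genes ran from 11 to 42 and stress genes from 24 to 34. The difference ran from 0.37 to 0.42 for Atf4, 0.92 to 1.13 for Chac1 and -0.49 to -0.41 for Irs2, and ended for Chac1 in 5 of 16 fits. Complete loss counts also fell to 271 and 288 without B6N knockout 1 and 2, and to 304 and 290 without B6N 1 and 3. Hypomorph counts became 112, 24 and 34 without B6J 1, 2 and 4, 36 and 29 without B6J transgenic 3 and 4, and 97 without B6N knockout 4. Difference counts became 34, 4, 6 and 6 without B6J 1 to 4, 24 and 8 without B6J transgenic 2 and 3, 8 and 47 without B6N knockout 2 and 4, and 8 and 6 without B6N 1 and 4.

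The replicate block gave 513, 63 and 15 genes, 30 shared and 33 stress genes, and differences of 0.39, 1.02 and -0.47 for Atf4, Chac1 and Irs2. It ended the difference of Zswim4 and Gm23767. Deviations of libraries with the same number correlated at -0.082 to 0.104 (24 pairs) and of those with other numbers at -0.134 to 0.157 (72 pairs), so the numbers were not taken to pair mice. At these depths the SE of the difference had a median of 0.17, and a call needed a difference several times its SE.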
